A study of Mus musculus with 54 samples.

Results

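Warm and cold dissociation were compared among methanol-fixed kidney cells in 6 of the 54 samples of the series, 3 warm and 3 cold, chosen by their labels as the fixed C57BL/6J libraries. All 6 were single-cell RNA-seq libraries of whole kidney from adult male C57BL/6J mice aged 19 weeks (AFAPIL.1DEL littermates, per the study's methods), made with droplet chemistry version 2. Cold-dissociated cells were released on ice and in a cold room at 4 °C with a protease of Bacillus licheniformis, an enzyme that works in the cold. Warm-dissociated cells were released with a commercial mixture of enzymes (Multi-tissue dissociation kit 2) in a program run at 37 °C. Temperature and enzyme therefore changed together and cannot be told apart. Cells of both groups were then fixed in 80% methanol at -20 °C for 30 minutes, kept at -80 °C and rehydrated before loading. Fresh aliquots of the same suspensions, 3 warm and 3 cold, served as the comparison for the question that the design poses, which is whether fixed cells keep the expression changes of a warm dissociation. The labels number no replicates, so the replicate numbers used here only name the libraries. The specimen codes in the headers of the tables place 1 cold and 1 warm library under each of 3 codes.

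Immediate-early genes such as Fos, Jun and Egr1 encode transcription factors whose mRNA appears within minutes of a stimulus, without new protein synthesis, because the factors that switch them on are already present in the cell. Heat shock genes such as Hspa1a encode chaperones that bind unfolded proteins and are switched on by heat shock factor. Enzymatic digestion of solid tissue at body temperature is known to induce both groups, while transcription is slow in the cold. Methanol dehydrates cells and precipitates their proteins and nucleic acids, so that transcription stops at fixation.

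The promoters of the 2 immediate-early genes and the 1 heat shock gene with the largest rises are shown first, because these genes stood out most in their groups. They were taken from RefSeq (build GRCm38.p6) and run 5′ to 3′ from 250 bases before to 50 bases after the start of each gene. Fosb lies on the minus strand (chr7:19309996-19310295), Fos on the plus strand (chr12:85473640-85473939) and Hspa1a on the minus strand (chr17:34972107-34972406). Capitals mark the letters that matched a searched motif.
Fosb: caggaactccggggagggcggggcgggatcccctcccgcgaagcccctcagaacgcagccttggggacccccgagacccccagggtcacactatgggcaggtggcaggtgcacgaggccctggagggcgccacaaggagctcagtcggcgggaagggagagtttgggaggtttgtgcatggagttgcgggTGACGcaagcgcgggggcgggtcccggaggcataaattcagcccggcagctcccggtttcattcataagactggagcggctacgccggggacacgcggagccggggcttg
Fos: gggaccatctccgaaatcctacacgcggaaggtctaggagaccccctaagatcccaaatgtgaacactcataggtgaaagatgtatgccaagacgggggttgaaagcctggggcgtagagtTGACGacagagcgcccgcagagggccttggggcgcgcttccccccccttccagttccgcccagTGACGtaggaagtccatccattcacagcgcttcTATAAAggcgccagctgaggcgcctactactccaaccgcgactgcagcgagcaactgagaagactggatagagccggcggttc
Hspa1a: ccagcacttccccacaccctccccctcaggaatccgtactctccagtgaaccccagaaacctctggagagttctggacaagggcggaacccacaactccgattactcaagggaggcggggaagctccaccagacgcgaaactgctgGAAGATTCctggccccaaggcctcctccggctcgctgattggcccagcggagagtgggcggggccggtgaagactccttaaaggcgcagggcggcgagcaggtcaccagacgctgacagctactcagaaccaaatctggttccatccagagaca

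Both strands were searched for the cAMP response element TGACGTCA, the AP-1 site TGANTCA, the heat shock element (GAANNTTC, any 2 bases and GAA), the TATA box TATAAA and the CArG box. None of these letters except TATAAA was present in the 3 windows, which says only that the letters are not there. Over all 32851 promoters of the RefSeq table, 1.79% held the cAMP response element, 7.81% the AP-1 site, 0.603% the heat shock element, 13.6% the TATA box and 1.63% the CArG box. Shorter forms were added after the longer ones had been searched: TGACG, which is part of the cAMP response element and was present in 20.8% of all promoters, and GAANNTTC, which is part of the heat shock element and was present in 7.86%. TGACG stood 60 bases before the start of Fosb, and 129 and 66 bases before the start of Fos, which also held TATAAA 33 bases before its start. GAANNTTC stood 104 bases before the start of Hspa1a. These matches describe letters and were not related to the expression values.

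The 6 fixed libraries held 17172 barcodes, 1886, 4672 and 5069 in cold replicates 1, 2 and 3 and 1451, 3312 and 782 in warm replicates 1, 2 and 3. Their total counts ran from 983522 to 6622948 unique molecular identifiers (UMIs), lowest in warm replicate 3. The median UMI count per barcode was 936.5, 882 and 837 in the cold libraries and 868, 802 and 818 in the warm ones (exact two-sided permutation test over libraries, p = 0.2, where 3 against 3 cannot give less than 0.1). Genes seen in fewer than 10 cells of a library had been set aside before cells were filtered and are listed at 0 there, while 316 to 841 genes per library were seen in 5 to 9 of the deposited barcodes. In all, 46.5% of the genes listed for the warm libraries were at 0 in warm replicate 3 against 8.09% to 30.8% in the other 5 libraries for the genes of their own group. A value of 0 in a library sum below therefore means listed at 0, while a 0 in the sum of a cell class can also be a count of 0. All 16 markers of the proximal tubule were present, at a summed 13257 to 17101 UMIs of each library scaled to a common total (CPM) in cold and 17364 to 19951 CPM in warm libraries. In all, 428 of the 17172 barcodes (2.49%) were found in more than 1 of the libraries used.

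The stress list had been drawn up by the study on the fresh aliquots, so it is no independent evidence of direction or of a larger rise in fresh cells. Its 17 genes took up 0.214%, 0.217% and 0.261% of the UMIs of the cold fixed libraries. The same genes took up 0.526%, 0.451% and 0.491% of the UMIs of the warm fixed libraries. Every warm library lay above every cold one, and the mean rose 2.12-fold from 0.231% ± 0.026 (SD, n = 3) to 0.490% ± 0.0376 (exact two-sided permutation test, p = 0.1, the smallest that 3 against 3 can give). In the fresh aliquots the means were 0.231% ± 0.0161 and 0.585% ± 0.0708 (n = 3 each), a 2.53-fold rise. With barcodes thinned to 500 UMIs and those with fewer left out, the rise was 2.13-fold in fixed and 2.16-fold in fresh cells. This left out 478, 965 and 1095 barcodes of the cold and 328, 779 and 193 of the warm fixed libraries. In the fresh libraries it left out 340, 159 and 241 cold and 316, 296 and 332 warm barcodes.

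Immediate-early genes of the stress list rose after warm dissociation. The Fos family member Fosb (ENSMUSG00000003545) was listed at 0 in all 3 cold fixed libraries and had 62.6, 55.9 and 45.8 CPM in warm replicates 1, 2 and 3. Fos (ENSMUSG00000021250), the transcription factor that pairs with Jun, had 0, 4.46 and 6.19 CPM in the cold libraries and 420, 368 and 311 CPM in the warm ones. Jun itself (ENSMUSG00000052684) had 16.3, 22.9 and 17.1 CPM against 413, 329 and 271 CPM. For all 3 genes the warm values stood far above the highest cold value, and warm replicate 1 was the highest and warm replicate 3 the lowest. The log2 fold change of Fos was 6.41 (standard error 0.37, edgeR quasi-likelihood test, adjusted p = 2.23e-05) and that of Jun was 4.16 (standard error 0.18, adjusted p = 5.32e-06). Fosb was called as well (adjusted p = 2.23e-05), and its log2 fold change came to 4.95 when 9 UMIs were put in place of each 0.

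The heat shock genes Hspa1a and Hspa1b and the feedback gene Dusp1 rose as well. Hspa1a (ENSMUSG00000091971), the inducible Hsp70 chaperone, had 8.16, 8.92 and 8.3 CPM in the cold fixed libraries and 304, 282 and 465 CPM in the warm ones (log2 fold change 5.34, standard error 0.20, edgeR adjusted p = 2.46e-06). Its groups did not overlap, and here warm replicate 3 was the highest. Dusp1, a phosphatase that switches off MAP kinases, had 42.7, 58.5 and 37.9 CPM against 556, 401 and 296 CPM, again without overlap (log2 fold change 3.19, standard error 0.23, adjusted p = 0.000107). Hspa1a shares most of its sequence with its neighbour Hspa1b, so the split of reads between them is uncertain. Hspa1b had 0, 2.71 and 4.38 CPM in the cold libraries and 15.8, 27.3 and 48.8 CPM in the warm ones.

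Of the 17 stress genes, 13 were called higher in warm fixed libraries and 0 lower, against 115 of all 9996 genes tested (1.15%) called higher and 83 (0.83%) lower at an adjusted p under 0.05. The median log2 fold change of the 17 genes was 3.19, while that of all genes tested was -0.12. The same 13 genes had groups that did not overlap, with every warm library higher, which was the case for 7.21% of all genes tested. Beside those described, the genes called higher were the transcription factors Atf3 (4.62), Egr1 (4.35), Junb (3.32) and Jund (1.73), the early response genes Ier2 (2.25) and Ier3 (0.74), the growth inhibitor Btg2 (1.56) and Hspa1b (3.34), given as log2 fold changes. The 4 that were not called were Hspb1, a small heat shock protein (0.95, edgeR adjusted p = 0.183, and 0.012 with the specimen code as a replicate block), Btg1 (0.45, adjusted p = 0.33), the constitutive chaperone Hspa8 (0.12, adjusted p = 0.774) and Hsp90ab1 (-0.07, adjusted p = 0.796). The count was 10 or 11 when any 1 of the 6 libraries was left out: Ier3 was lost in all 6 cases, Btg2 without cold replicate 1 or 3 or warm replicate 1 or 2, and Hspa1b without cold replicate 2 or warm replicate 2 or 3. Counting only genes above 0 in every fixed library left 8, since 5 of the 17 were at 0 in at least 1 cold library.

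**Figure D1:**
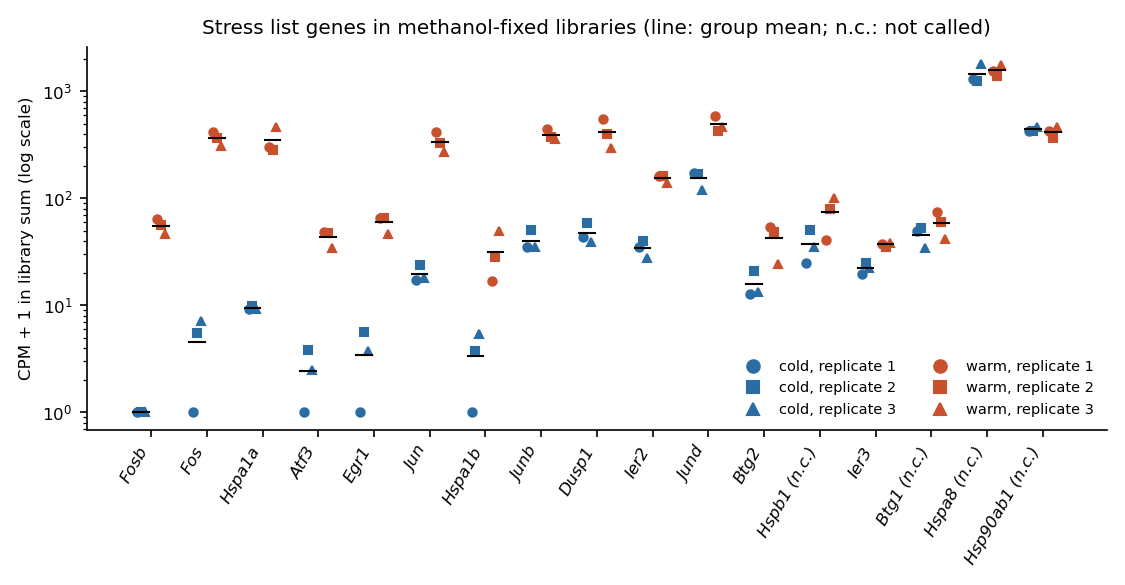
Level of the 17 stress genes in each methanol-fixed library, in CPM on a logarithmic axis, plotted after adding 1, with 1 point per library, a short line at each group mean and genes ordered by log2 fold change. The 13 called genes show warm points above every cold point, for example 271 to 413 CPM against 16.3 to 22.9 CPM for Jun, whereas the 4 genes that were not called (n.c.) overlap.

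Over the whole table, 198 genes were called in the library sums (1.98%), and the count depended on single libraries. It was 96, 68 and 113 without cold replicates 1, 2 and 3, and 75, 911 and 125 without warm replicates 1, 2 and 3. Of the calls, 58.1% were higher in warm, but only 14.6% of the 911 were. DESeq2 called 594 genes, of which 365 were higher. The groups did not overlap for 26% of all genes tested.

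Wider gene lists, which share genes with the stress list, held further calls, where 1.15% of all genes were called higher and 0.83% lower. Of 22 immediate-early transcription factor genes tested, 14 were called higher and 0 lower (median log2 fold change 1.90). Nr4a1, Klf6, Klf4, Klf2 and Cebpb were the called genes outside the stress list, and the others were already counted in it. Of 19 feedback regulators, 5 were called higher (median 0.45), and Dusp1 and Btg2 of these were already counted in the stress list. Rgs1, a regulator of G protein signalling, led the 5. It had 0, 2.23 and 0 CPM in the cold libraries and 72.8, 56.9 and 37.6 CPM in the warm ones. Zfp36, which speeds the decay of cytokine mRNA, was another of the 5. Its values were 14.1, 18.8 and 19.9 CPM against 122, 140 and 85.4 CPM (log2 fold change 2.73, standard error 0.22, edgeR adjusted p = 0.000173). Both Rgs1 and Zfp36 were above all cold values in all 3 warm libraries, as were 7.21% of all genes tested.

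Of 7 chemokine and cytokine genes tested, 4 were called higher and 0 lower (median log2 fold change 1.13), where 1.15% of all genes were called higher and 7.21% had groups apart with warm higher. The chemokine gene Ccl3 had 0, 4.62 and 0 CPM in the cold fixed libraries and 153, 70.3 and 84.4 CPM in the warm ones. Ccl4 had 0, 7.49 and 10.4 CPM against 285, 179 and 161 CPM. Il1b, the gene of the inflammatory cytokine interleukin 1 beta, had 0, 4.94 and 7.4 CPM against 49.4, 39.9 and 50.8 CPM. For these 3 genes the groups stood apart, while Ccl5 was close to the threshold (90.2, 112 and 47.1 against 160, 174 and 199 CPM, edgeR adjusted p = 0.0499). Leaving out cold replicate 1, warm replicate 1, 2 or 3 ended the call of Ccl5 (largest adjusted p = 0.166), and leaving out cold replicate 2 ended that of Il1b (adjusted p = 0.0577). Of 12 genes of the NF-kappa B pathway, only Cd83 was called (2.38, adjusted p = 0.00347), and the inhibitor Nfkbia had 43.8, 47.5 and 33.4 against 72.3, 59 and 60 CPM (0.65, adjusted p = 0.0507, and 0.039 with the replicate block).

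Lists of other stress pathways were called in part, where 1.15% of all genes were called higher. Of 21 heat shock genes, 4 were called higher (Hspa1a, Hspa1b, Dnajb1 and Dnajb4) and the median was 0.12. Dnajb1, a partner of Hsp70, had 20.8, 23.6 and 27.3 CPM in the cold libraries and 97.2, 93.2 and 194 CPM in the warm ones, again with no overlap. Of 16 genes of the unfolded protein and integrated stress responses, Ppp1r15a alone was called, at 12.6, 11.8 and 9.66 against 76.3, 63.4 and 44.7 CPM (2.51, standard error 0.19, edgeR adjusted p = 0.000155). The chaperone Hspa5, a usual marker of the unfolded protein response, had 181, 160 and 181 against 151, 114 and 215 CPM, and its groups overlapped. Of 15 genes tested from a mixed list of p53, Gadd45 and apoptosis genes, Gadd45g and Pmaip1 were called higher and Bax lower. Gadd45g had 57.5, 64.2 and 50.9 against 277, 235 and 312 CPM (2.26, adjusted p = 9.59e-06). With edgeR none of 13 oxidative stress genes, 4 long non-coding RNA genes or 13 mitochondrially encoded genes was called, with 4, 2 and 0 at an unadjusted p under 0.05 (1514 of all 9996 genes) and 3, 0 and 0 called by DESeq2. Rbm3 (0.15, adjusted p = 0.712) and Cirbp (0.01, adjusted p = 0.995), both RNA-binding proteins that cold induces in cultured cells, were not called either, by DESeq2 included. The calls of Dnajb4, Pmaip1 and Bax were lost without 4, 5 and 5 of the 6 libraries in turn, with adjusted p of up to 0.103, 0.209 and 0.0917.

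Genes called higher with at least 20 CPM in either group were led by Fosb, Gm6377, Fos, Rgs1, Ccl3, Hspa1a, Ccl4, Atf3 and Cyr61. Cyr61, a matricellular gene and early target of growth signals, had 5.2, 6.21 and 5.13 CPM in the cold libraries and 173, 141 and 76.3 CPM in the warm ones (4.59, standard error 0.29, edgeR adjusted p = 3.98e-05). Gm6377 was listed at 0 in all cold libraries and had 18.8, 11.6 and 30.5 CPM in the warm ones, a call that was lost without warm replicate 1 (adjusted p = 0.0615).

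The genes with the largest fall were those of podocytes, the cells that wrap the glomerular capillaries. Wt1, a transcription factor of podocytes, had 31.9, 45.9 and 24 CPM in the cold fixed libraries and was listed at 0 in all 3 warm ones. Tcf21, a transcription factor of podocytes and mesenchyme, had 58.3, 57.2 and 29.7 CPM and was likewise listed at 0 in all warm libraries. Cdkn1c, a cell cycle inhibitor of mature podocytes, had 125, 137 and 110 CPM against 8.65, 1.8 and 0 CPM. No warm value reached the lowest cold one for any of the 3 genes, and groups that did not overlap with warm lower were found for 18.8% of all genes tested. Their edgeR adjusted p were 0.00152, 0.000934 and 0.000155, and with 9 UMIs in place of 0 the log2 fold changes were -3.02, -3.50 and -4.58.

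Of 10 podocyte markers, 8 were listed for both groups. Where 0.83% of all genes tested were called lower, 7 of these 8 markers were (Podxl, Wt1, Synpo, Cdkn1c, Ptpro, Clic3 and Rhpn1). Their summed level ran from 322 to 458 CPM in cold and from 7.12 to 34.6 CPM in warm libraries, with Wt1, Synpo and Ptpro at 0 in all warm libraries. Nphs1, which encodes nephrin of the slit diaphragm, was listed for the cold fixed libraries alone, in 108 barcodes. In library sums, fewer cells of a type and less RNA per cell cannot be told apart. The other genes of the 10 with the largest fall were Fgfbp1, Clic3, Rasl11a, Cldn5, Plat, Podxl and H2-Q7. Plat, the gene of tissue plasminogen activator, had 85.4, 105 and 47 against 9.16, 7.47 and 15.3 CPM, and Cldn5, a tight junction gene of endothelium and podocytes, had 45.3, 48 and 26.7 against 0, 5.67 and 0 CPM, a call lost without cold replicate 1 or 2 (largest adjusted p = 0.0631). The 12 mural and mesangial markers summed to 235 to 686 CPM in cold and 0 to 185 CPM in warm libraries, with Pdgfrb, Notch3, Itga8, Des and Rergl at 0 in all warm libraries, and 0 of the 7 tested were called by edgeR or DESeq2, with 6 at an unadjusted p under 0.05.

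Hemoglobin transcripts, which come from red blood cells, were lower in warm libraries. They made up 1.22%, 1.75% and 2.69% of UMIs in cold and 0.746%, 0.426% and 0.746% in warm fixed libraries (0.339 of the cold mean, exact two-sided permutation test, p = 0.1, the smallest possible). Hbb-bs had 6384, 8926 and 13308 against 3799, 2114 and 3981 CPM, and Hba-a2 had 2315, 3153 and 5042 against 1337, 798 and 1209 CPM. Every warm value of both genes lay below every cold one, as for 18.8% of all genes tested. Hbb-bt, 1 of the 4 hemoglobin genes, was not called (-1.52, edgeR adjusted p = 0.0511, and 0.023 with the replicate block). The other 3 were called lower (Hba-a1 -1.60, Hba-a2 -1.67, Hbb-bs -1.55), where 0.83% of all genes tested were. These calls were lost without 5, 3 and 5 of the 6 libraries in turn, with adjusted p of up to 0.14, 0.0887 and 0.133. Of 7 erythroid markers 6 were listed for both groups, none of them at 0 in all libraries of a group, at a summed 12211 to 26929 CPM in cold and 4263 to 7472 CPM in warm libraries. Whether the shift in hemoglobin has a part in the other differences was not tested, and 199 genes were called with hemoglobin and mitochondrial genes removed.

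Of 17 transporter genes of the proximal tubule 1 was called higher, 2 were called lower and 14 were not called, where 1.15% of all genes were called higher and 0.83% lower. Slc22a6, an organic anion transporter, was the one called higher (157, 126 and 118 against 216, 192 and 239 CPM), and Slc5a2 and Slc7a8 were called lower. Slc5a2, the sodium-glucose transporter of the early proximal tubule, had 288, 249 and 301 against 130, 129 and 201 CPM, with no overlap (-0.88, standard error 0.16, edgeR adjusted p = 0.0234). Slc7a8, an amino acid transporter, had 77.2, 70.9 and 84.9 against 47.8, 37.6 and 55.9 CPM (-0.76, adjusted p = 0.0358). Slc22a6 lost its call without cold replicate 2 (adjusted p = 0.0712), Slc5a2 without any cold replicate or warm replicate 1 (up to 0.138) and Slc7a8 without any 1 library (up to 0.144). Of 7 injury markers, Krt8 was called higher (0.49, adjusted p = 0.0458, and 0.067 with the replicate block) and Vim lower (-1.38, adjusted p = 0.00444), and Krt8 lost its call without any 1 library.

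In the fresh aliquots, on which the stress list had been drawn up, 15 of its 17 genes were called higher, with a median log2 fold change of 3.00. Over all genes of the fresh aliquots 948 were called higher and 853 lower of 12061 tested (14.9%). Their libraries held 5252363 to 14064480 UMIs against 983522 to 6622948 in fixed ones. Of 911 genes called higher in fresh cells and tested in both, 93 (10.2%) were called higher in fixed cells, against 1.15% of all 9987 genes tested in both, and these were 80.9% of the fixed calls in that direction. Of 704 called lower in fresh cells, 66 (9.38%) were called lower in fixed cells, against 0.83% of all genes tested in both, and these were 79.5% of the fixed calls. In neither direction was a gene called the opposite way by these main fits. Fixed and fresh libraries share their suspensions, so the counts are not independent of each other.

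The share that was called again depended on the size of the fresh change. Of the genes called higher in fresh cells with a log2 fold change of at least 1, 49 of 100 were called higher in fixed cells, and of those with at least 2, 26 of 32 (81.25%) were. For genes called lower the counts were 41 of 192 and 21 of 44. Among all 911 genes called higher in fresh cells, 91.0% had a positive log2 fold change in fixed cells, against 37.5% of all genes tested in both. The 159 genes called in both became 83, 63 and 98 without cold replicates 1, 2 and 3, and 71, 279 and 112 without warm replicates 1, 2 and 3.

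**Figure D2:**
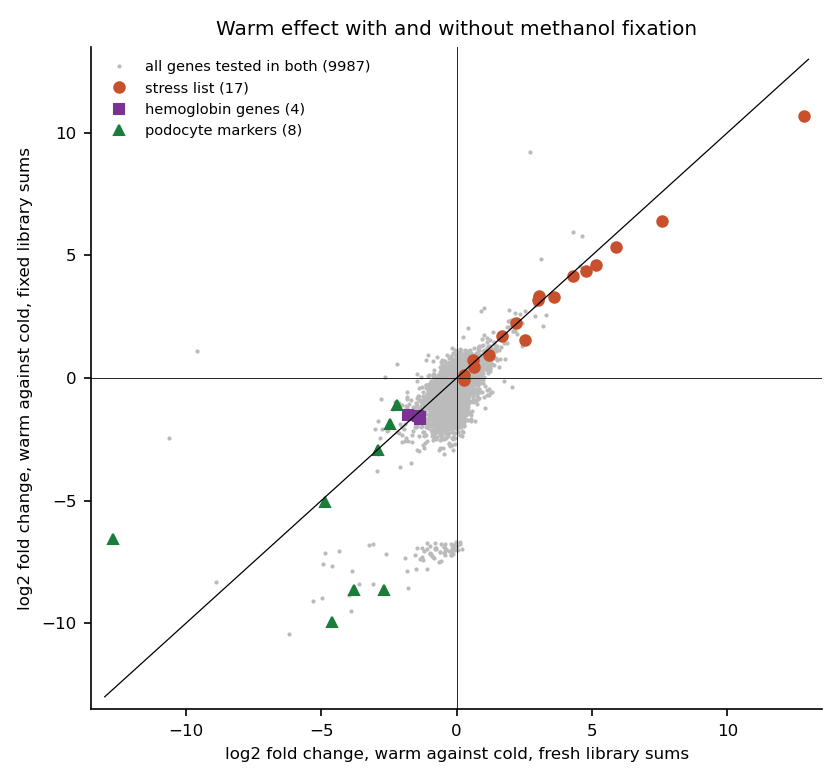
Log2 fold change of warm over cold in fixed library sums (vertical axis) against that in fresh library sums (horizontal axis), 1 point for each of 9987 genes, with the 17 stress genes, 4 hemoglobin genes and 8 podocyte markers marked and the line of equal change drawn. The stress genes lie along the line, 12 of 17 with the larger value in fresh cells, and the points far below 0 on the vertical axis near 0 on the horizontal one are genes listed at 0 in all 3 warm fixed libraries (79 of those tested in fixed libraries).

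The difference between the warm effect in fixed and in fresh cells was tested by its own term. No gene of 12001 passed in the library sums with edgeR (0%, smallest adjusted p = 0.106), with 1205 at an unadjusted p under 0.05. DESeq2 called 177, the replicate block by suspension 16, and the fit without warm replicate 2 called 850. For the stress genes, 12 of 17 had the larger log2 fold change in fresh cells, on which the list had been chosen. Their edgeR adjusted p of the difference ran from 0.336 upward. Btg2 was the gene with the lowest p, at 1.56 in fixed against 2.51 in fresh cells (difference -0.96, standard error 0.31, edgeR adjusted p = 0.336). The difference was -0.14 for Jun (standard error 0.25), -0.55 for Hspa1a (standard error 0.35) and -1.19 for Fos (standard error 0.70, adjusted p = 0.616). On simulated counts with the spread of these libraries, the test found 24.7% of differences of 1 and 72% of differences of 2 on the log2 scale.

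Within cell classes the stress list made up the largest share of UMIs in warm immune and endothelial cells, although differences between classes were not tested. The cells were clustered together with the fresh and cryopreserved ones and clusters were named from markers, which gave 17 classes and left 3921 fixed cells unnamed. Because names rest on clusters rebuilt from the counts, the classes are called macrophage-like, endothelial-like and so on. The study proposes that methanol damages cells, so that ambient RNA enters the droplets of most cell types. The part of such RNA in the class values was not tested. Over the 9 classes with enough cells, 16181 gene and class pairs were tested, of which 277 (1.71%) were called higher and 183 (1.13%) lower, 2.84% in all. Of 80 pairs with a stress gene, 53 were called higher and 0 lower. Without warm replicate 1 or 2, B cell-like and T cell-like cells left the fits. They held 8 and 7 of the 53 stress calls and 47 and 23 of the 460 calls of all genes. With warm replicate 2 left out, 35 stress pairs were called. The 460 pairs of all genes became 234 and 236 without cold replicates 2 and 3, and 245 and 244 without warm replicates 1 and 2. With the replicate block 303 pairs were called.

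Macrophage-like cells (422 cold and 159 warm cells) gave 10 of 11 stress genes called higher (median 4.16), against 6.22% of all 933 genes tested called in either direction. The stress list took up 0.206%, 0.158% and 0.191% of their UMIs in cold libraries and 2.16%, 1.48% and 2.18% in warm ones. Hspa1a was at 0, 0 and 4.62 CPM in cold and at 5049, 2801 and 5020 CPM in warm macrophage-like cells. Fos was at 0, 11.6 and 4.62 against 2676, 1675 and 2821 CPM. Every warm value of both lay far above every cold one, while the 0 of Fos in cold replicate 1 is a gene listed at 0 in that library. The constitutive Hspa8, which overlapped between groups in the library sums, had 847, 705 and 1025 against 2932, 2606 and 3485 CPM here (1.82, standard error 0.18, edgeR adjusted p = 2.74e-05). Hspa5, whose groups also overlapped in the library sums, had 190, 150 and 139 against 489, 480 and 539 CPM (1.73, standard error 0.23, edgeR adjusted p = 0.000267).

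Ccl3, Ccl4, Rgs1 and Nfkbia rose in macrophage-like cells as well. Ccl3 had 0, 28.9 and 0 CPM against 3839, 2086 and 1327 CPM, and Ccl4 had 0, 46.2 and 185 against 7469, 4271 and 3360 CPM. Rgs1 had 0, 11.6 and 0 against 2327, 1557 and 1286 CPM. Warm replicate 1 was the highest and warm replicate 3 the lowest for all 3 genes, with no overlap. Nfkbia, which was not called in the library sums, had 34.6, 57.8 and 36.9 against 558, 362 and 415 CPM (3.27, standard error 0.35, edgeR adjusted p = 5.48e-05). The 4 called chemokine and cytokine genes of 7 tested, in a class with 6.22% of all genes called, were Ccl3, Ccl4, Il1b and Ccl5. Ccl5 had 17.3, 75.2 and 36.9 CPM in cold and 396, 333 and 4522 CPM in warm libraries, and its call was lost without cold replicate 2 or 3 (adjusted p of up to 0.109). One cluster, number 12, held 1% of the cold and 15% of the warm macrophage-like cells.

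Endothelial-like cells (560 cold and 187 warm) had 10 of 13 stress genes called higher (median 2.67, 1.77% of all 1698 genes tested called). Hspa1a had 0, 13 and 15.5 CPM in cold and 3099, 2324 and 3934 CPM in warm cells. Jun had 122, 96.6 and 55.7 against 2246, 2016 and 1808 CPM, and Jund, which was called at 1.73 in the library sums, had 344, 198 and 117 against 2115, 1504 and 2339 CPM (3.19). Warm values of these genes were above cold values throughout. Of the clusters of this class, cluster 40, with Ehd3 and Plat among its leading genes, held 30 cold and 0 warm cells and cluster 8 held 16 cold and 11 warm cells, and their part in these values was not tested. Hspb1, not called in the library sums, had 284, 331 and 374 against 984, 1143 and 1949 CPM in endothelial-like cells (1.82, standard error 0.25, edgeR adjusted p = 0.0002). Ier3 had 50.7, 41.8 and 30.9 against 475, 180 and 177 CPM (2.67, adjusted p = 0.000685).

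Proximal tubule-like cells, the most numerous class with 5677 cold and 3218 warm cells, had 12 of 17 stress genes called higher (median 3.06). In all, 121 genes were called higher and 121 lower of 8040 tested (3.01%). These became 47 and 31 without cold replicate 2, 59 and 26 without cold replicate 3, 80 and 42 without warm replicate 1 and 64 and 36 without warm replicate 2, while the stress calls stayed between 10 and 13. With the replicate block 113 genes were called in both directions together. The cells of the class sat in different clusters in the 2 groups, and the part of this in the values below was not tested. Clusters 24 and 28, with Cyr61 among their leading genes, held 2 and 5 cold against 111 and 63 warm cells. Clusters 2 and 22, with Slc5a2 among theirs, held 1207 and 541 cold against 463 and 118 warm cells, while clusters 4 and 6, which are led by other genes, held 817 and 177 against 674 and 262. Their stress list took up 0.209%, 0.209% and 0.27% of UMIs in cold and 0.408%, 0.348% and 0.378% in warm libraries. Fosb was at 0 in the cold libraries and at 67.6, 56.9 and 43 CPM in the warm ones, and Fos had 0, 1.28 and 1.29 against 268, 240 and 171 CPM. Hspa1a had 2.41, 2.55 and 4.14 against 33.4, 106 and 195 CPM in proximal tubule-like cells. Warm replicate 1 was the highest of the warm libraries for Fosb and Fos and the lowest for Hspa1a.

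Cyr61 had 4.82, 4.15 and 5.17 CPM in cold and 252, 190 and 97.7 CPM in warm proximal tubule-like cells (5.26, standard error 0.30, edgeR adjusted p = 1.63e-07), and it leads clusters that hold few cold cells. Of the 17 transporter genes, Slc5a2 (400, 375 and 411 against 166, 170 and 276 CPM) and Slc7a8 (109, 110 and 117 against 49.6, 45.8 and 74.5 CPM) were called lower within the class too, at -1.01 and -1.08 (adjusted p = 0.00313 and 0.00271), beside the smaller share of warm cells in clusters 2 and 22. Both kept their calls without any 1 of the 6 libraries (adjusted p of up to 0.0377). Podxl and Clic3, which are podocyte markers, were also called lower among proximal tubule-like cells, at 6.63, 13.7 and 12.2 against 0.855, 1.65 and 0 CPM and at 22.3, 25.8 and 18.9 against 0, 0 and 11.6 CPM. Their calls were lost without 4 and 3 of the 6 libraries in turn (up to 0.164 and 0.109) and with the replicate block (adjusted p = 0.0894 and 0.0764).

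In lymphocytes the gene fits used 2 warm libraries, since warm replicate 3 held 8 B cell-like and 9 T cell-like cells and was dropped from these fits. The stress list took up 0.237%, 0.206% and 0.221% of UMIs in cold B cell-like cells and 1.91%, 1.31% and 3.08% in warm replicates 1, 2 and 3. In T cell-like cells it took up 0.183%, 0.227% and 0.242% against 1.42%, 1.49% and 2.56%. B cell-like cells had 8 of 10 stress genes called higher (median 3.88, 8.69% of 541 genes called). Junb had 97.3, 145 and 99.5 CPM in cold libraries and 5369 and 3687 CPM in warm replicates 1 and 2. Klf2, a factor of resting lymphocytes, had 1978, 1225 and 1513 against 6067 and 4569 CPM in B cell-like cells. T cell-like cells had 7 of 9 stress genes called higher (median 2.59, 4.29% of 536 genes called). Ccl4, a chemokine that cytotoxic cells secrete, had 0, 65.9 and 0 against 3054 and 2654 CPM in T cell-like cells. It was also called higher in proximal tubule-like cells (4.64, edgeR adjusted p = 0.000511). So was Ccl3 (5.29, adjusted p = 0.00772), a call lost without cold replicate 3 or warm replicate 1. Ppp1r15a was at 0 in all 3 cold T cell-like sums and at 855 and 362 CPM in the warm ones. The stress calls numbered 7 or 8 in B cell-like and 5 to 7 in T cell-like cells when any 1 cold library was left out. Cold replicate 2 gave the lowest numbers. Neither warm library of these fits could be left out, since at least 2 per group were needed. With the replicate block all calls in B cell-like cells went from 47 to 18. Those 31 higher and 16 lower calls became 38 and 36 without cold replicate 1, 20 and 7 without cold replicate 2 and 21 and 3 without cold replicate 3. Of the 16 lower calls 4 were hemoglobin genes. The lymphocyte genes Cd79b (-0.93), Iglc3 (-1.02), Ltb (-1.59) and Gimap1 (-2.16) were lower too, and were also called lower in the fresh aliquots. Their fixed calls were lost with the replicate block (edgeR adjusted p = 0.112, 0.0902, 0.127 and 0.164). Others were transcripts of the proximal tubule such as Gpx3 (-1.44), Gatm (-2.83) and Slc34a1 (-1.99). Their calls were also lost with the block (adjusted p = 0.164, 0.141 and 0.221). The part of such transcripts in the values of this class was not tested.

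Among tubule segments after the proximal tubule, ascending loop of Henle-like cells (297 cold and 271 warm) had 6 of 9 stress genes called higher (3.24% of 1513 genes called), 9 of 13 without cold replicate 1 or warm replicate 3 and 4 of 7 without cold replicate 3. All calls, 32 higher and 17 lower, became 15 and 8 without cold replicate 3 and 19 and 13 without warm replicate 1. Fos had 0, 0 and 5 CPM in their cold and 1324, 268 and 222 CPM in their warm sums, and Junb had 14.4, 12.5 and 15 against 1014, 279 and 141 CPM, with warm replicate 1 far above the other two. Cldn10, a tight junction gene of this segment, had 861, 954 and 715 against 1622, 1808 and 1473 CPM (0.90, standard error 0.15, edgeR adjusted p = 0.000206), and Egf, which this segment makes, had 5354, 5380 and 4743 against 3387, 3216 and 3955 CPM (-0.64, standard error 0.12, adjusted p = 0.00114). Both differences were larger than the spread between libraries, and both genes are among the markers that named the class. Some transcripts abundant in the proximal tubule were called lower in the same warm sums. Gpx3 had 8857, 7785 and 10161 against 4961, 4723 and 6073 CPM, and Gatm (-1.21) and Spink1 (-0.71) were lower as well. Summed over a panel of 17 proximal tubule transcripts the groups overlapped, at 3675, 3263 and 3622 against 3065, 3578 and 3027 CPM. The part of such transcripts in the other values was not tested. The calls of Gatm and Spink1 were lost without cold replicate 3 or warm replicate 1 (adjusted p of up to 0.0993 and 0.140), and Gatm turned to 0.454 when clusters were named by marker scores.

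In the distal nephron few stress genes could be tested and edgeR called 0 of 4 in collecting duct intercalated cell-like, 0 of 4 in connecting tubule-like (0.62% of all genes called) and 0 of 3 in distal convoluted tubule-like cells (0.624%), with 2, 1 and 0 at an unadjusted p under 0.05 and 1, 0 and 0 called by DESeq2. Junb had 87.4, 37.2 and 7.23 against 508, 432 and 150 CPM in collecting duct intercalated cell-like cells (3.38, standard error 0.53, edgeR adjusted p = 0.0728), so its groups did not overlap although it was not called. No gene of 1152 was called in this class by edgeR (0%), with 96 at an unadjusted p under 0.05 and 4 called by DESeq2. The stress list took up 0.221%, 0.223% and 0.241% of UMIs in their cold and 0.852%, 0.599% and 0.232% in their warm sums, so that warm replicate 3 with 13 cells fell among the cold values. Without that library 7 of 11 stress genes tested were called higher in this class, where 12 of all 1435 genes were. Without cold replicate 1 it was 6 of 11, where 7 of all 1437 genes were. Without cold replicate 2 or 3 it was 0 of 10. Leaving out single libraries gave 1 or 2 called stress genes in connecting tubule-like and 0 in distal convoluted tubule-like cells. All calls there, 1 higher and 4 lower in connecting tubule-like cells and 0 and 6 in distal convoluted tubule-like cells, became 4 and 6 and 4 and 24 without cold replicate 1, and 4 and 9 in the latter without warm replicate 3. With the replicate block 9 genes were called in connecting tubule-like cells. In the fresh aliquots 10 of 13 stress genes tested were called higher in collecting duct intercalated cell-like cells, from more UMIs. There 21 of all 2554 genes were called higher. Fresh connecting tubule-like cells gave 4 of 9 (7 of all 1555 genes) and fresh distal convoluted tubule-like cells 2 of 9 (6 of all 2134). Whether these classes differ from the others in their response was not tested.

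**Figure D3:**
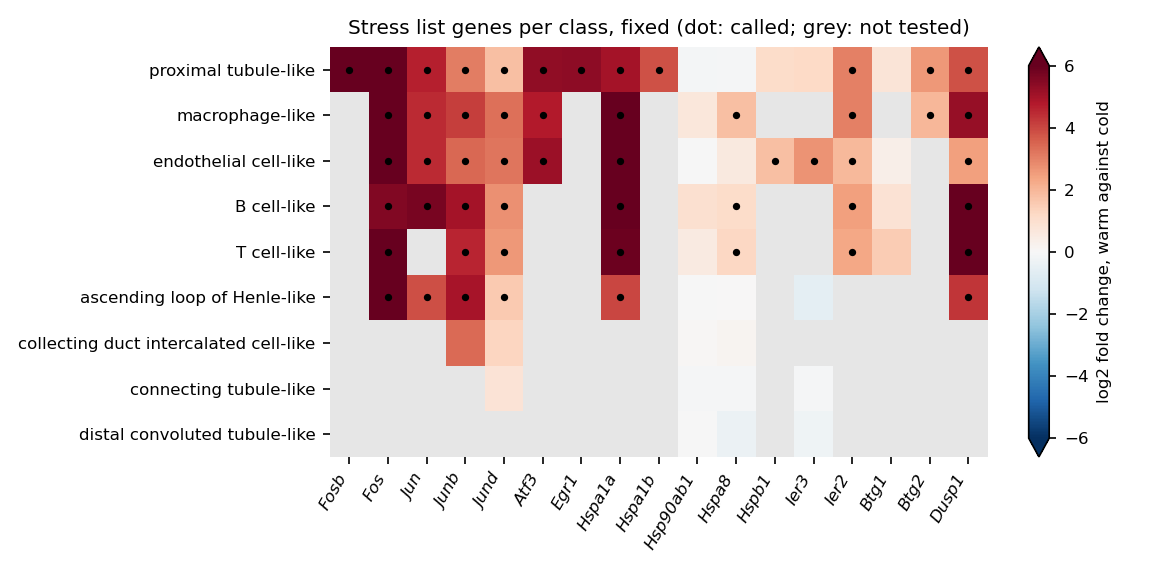
Log2 fold change of warm over cold for each stress gene (columns) in each tested class of methanol-fixed cells (rows), with dots on called pairs and untested pairs in grey. Called pairs stand in the rows of macrophage-like, endothelial-like, B cell-like, T cell-like, proximal tubule-like and ascending loop of Henle-like cells, and the 3 distal classes hold none.

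Few genes were called in most classes. Fos, Hspa1a, Dusp1, Junb and Jund were among those called higher in 6 classes each, out of 6, 6, 6, 7 and 8 tested. Gm42418 and AY036118, which overlap ribosomal RNA, were called higher in 5 of 9 classes each. In the library sums Gm42418 had 478, 571 and 667 CPM in cold and 1284, 1000 and 2001 CPM in warm libraries (1.31, standard error 0.23, edgeR adjusted p = 0.0205), a call lost without cold replicate 1 or 2 or warm replicate 1 or 3 (adjusted p of up to 0.118). Of a list of 15 transcripts that rise on methanol fixation, drawn up by the study on these libraries, Gm42418 alone was called (median 0.34). Gm42418 was thus higher in the same warm libraries as the stress genes, and its part in the other differences was not tested. In the other direction Hba-a1, Hba-a2 and Hbb-bs were called lower in 8 of 9 classes and Hbb-bt in 6. In all 30 of 36 pairs of a hemoglobin gene and a class were called lower, against 1.13% of all pairs tested. None of these classes makes hemoglobin. Hba-a2 fell from 3145, 4611 and 10210 CPM to 1664 and 775 CPM in B cell-like cells and from 2070, 2758 and 4320 to 1363, 772 and 1250 CPM in proximal tubule-like cells. With the replicate block the calls of Hba-a1, Hba-a2 and Hbb-bs in B cell-like cells were lost (adjusted p = 0.241, 0.123 and 0.212). Hemoglobin was thus lower in the same warm libraries in which the stress genes were higher, and its part in any class difference was not tested.

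**Figure D4:**
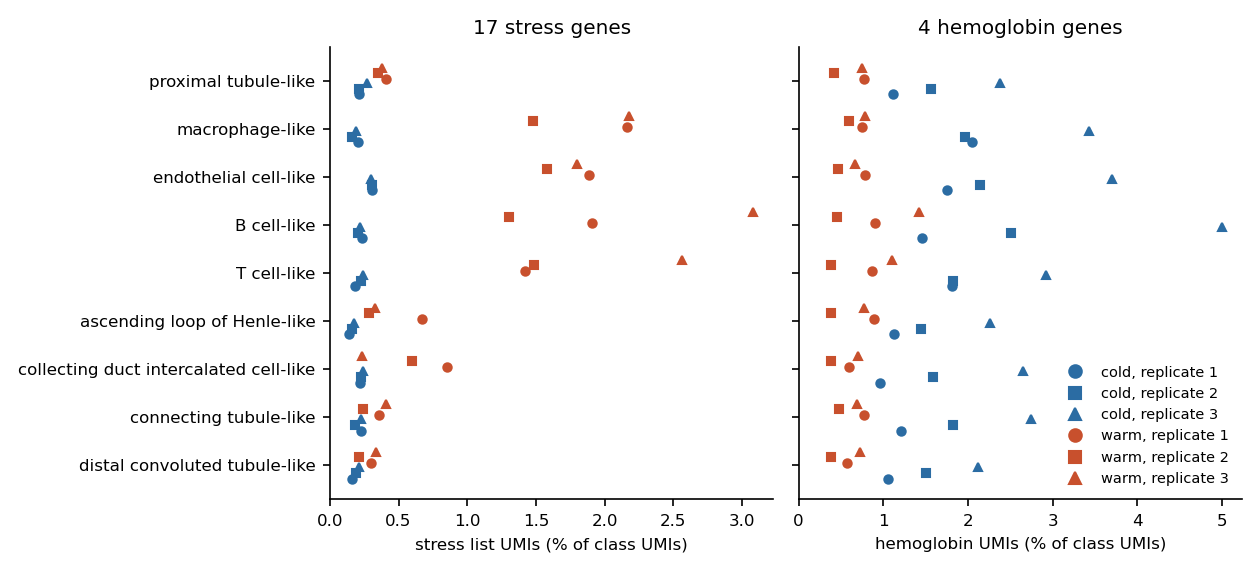
Summed share of the 17 stress genes (left) and of the 4 hemoglobin genes (right) in the UMIs of each class, in percent, 1 point per methanol-fixed library. Stress shares of warm macrophage-like cells (1.48% to 2.18%) lie above the cold ones (0.158% to 0.206%), and every warm hemoglobin share lies below every cold one of its class.

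The test of the difference between fixed and fresh cells called 2 of 26846 pairs in the classes (0.00745%), both of them Malat1, a nuclear long non-coding RNA, with 1683 pairs at an unadjusted p under 0.05. In connecting tubule-like cells Malat1 had 3508, 6896 and 4555 CPM in cold fixed and 1297, 922 and 1251 CPM in warm fixed libraries. The fresh values were 34880, 44471 and 42317 CPM in cold and 39867, 46224 and 29352 CPM in warm libraries. Warm values were thus lower than all cold ones after fixation and overlapped with them before it (difference of log2 fold changes -2.13, standard error 0.32, edgeR adjusted p = 0.000897). In distal convoluted tubule-like cells the fixed values of Malat1 were 10023, 10014 and 5815 against 2648, 2098 and 2994 CPM (difference -1.40, standard error 0.26, adjusted p = 0.0131), a call lost without cold replicate 2, warm replicate 1 or warm replicate 2 (adjusted p of up to 0.139). In macrophage-like cells Malat1 was instead called higher in warm fixed libraries, at 7796, 7625 and 6358 against 13402, 17034 and 14312 CPM (1.09, standard error 0.16, adjusted p = 0.000666). Its difference from fresh macrophage-like cells was 1.18 (edgeR adjusted p = 0.547, and 0.0176 with the replicate block). Over all fixed cells the groups of Malat1 overlapped, with 6455, 6237 and 4033 against 5046, 6151 and 4333 CPM. None of the 127 stress gene pairs was called for this difference, and with the replicate block 156 pairs were called, 139 of them in proximal tubule-like cells and 2 of them stress pairs.

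Of the 17 named classes and the unnamed cells, 2 of 18 (11.1%) differed in their share of barcodes. Podocyte-like cells numbered 36, 106 and 70 in the cold libraries and 1, 1 and 0 in the warm ones, or 1.91%, 2.27% and 1.38% of barcodes against 0.0689%, 0.0302% and 0% (log2 fold change -5.51, standard error 0.52, edgeR adjusted p = 9.2e-05). Ascending loop of Henle-like cells made up 2.49%, 2.78% and 2.37% of cold and 4.69%, 4.98% and 4.86% of warm barcodes (0.93, standard error 0.16, adjusted p = 0.0037). Both calls were kept without any 1 library. Mesangial or mural-like cells numbered 11, 57 and 21 against 0, 9 and 0, which did not pass the test (-2.25, adjusted p = 0.0737). Distal convoluted tubule-like (-0.61) and descending loop of Henle-like cells (-1.53) did not pass either, both at an edgeR adjusted p of 0.0737. Nor did collecting duct principal-like cells, at 40, 112 and 46 against 8, 33 and 3 (-1.24, adjusted p = 0.0869). Leaving out cold replicate 3 brought the number of classes called to 5. The shares count barcodes that were loaded and kept, not cells of the kidney.

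**Figure D5:**
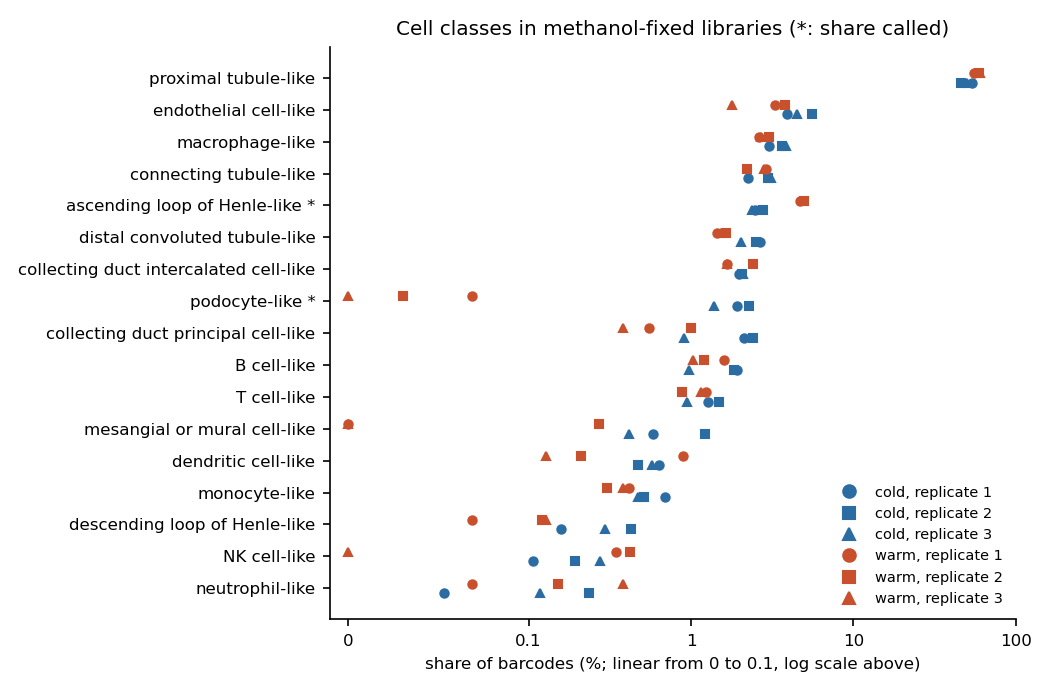
Share of barcodes in each class, in percent, on an axis that is linear up to 0.1% and logarithmic above, 1 point per methanol-fixed library, with called classes starred. Podocyte-like cells lie at 1.38% to 2.27% in cold and at most 0.0689% in warm libraries, and ascending loop of Henle-like cells lie higher in all 3 warm libraries.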

How the data were processed

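Per the labels and methods, the authors ran Cell Ranger 2.1.1 on GRCm38 (mm10), told cells from empty droplets, kept genes seen in at least 10 cells of a sample and filtered cells by genes detected and mitochondrial share. The deposited values are UMI counts per gene and barcode, not normalized. From these, UMIs were summed per library, or per library and cell class, and warm was compared with cold by edgeR 4.0.16 (TMM factors, filterByExpr, quasi-likelihood test, Benjamini-Hochberg over all genes tested), called at an adjusted p under 0.05. A class entered with 10 cells in at least 2 libraries per group. The adjustment was made within each class separately, not over all pairs of genes and classes. CPM are counts over the library or class total. The difference between fixed and fresh cells was an interaction term over 12 libraries. Members and gene lists were chosen with earlier results of these data known.

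Classes came from Leiden clustering (leidenalg 0.10.2, resolution 2, 30 principal components) of 18 fixed, fresh and cryopreserved C57BL/6J libraries, 64 clusters in all, of which 41 were named from at least 3 detected markers each and 23 were left unnamed. Doublets were scored from simulated pairs, with their number set by a preset rate of 0.8% per 1000 barcodes (519 barcodes, 3.02%). They were kept, with their removal as an alternative. Replicates are libraries of suspensions that share specimen codes in the table headers. Deviations of same-code fixed libraries from their group means correlated at 0.250, 0.196 and 0.134 over 5193 genes, so the code was also used as a replicate block. The labels give no animal for a library, so p-values measure the spread between these libraries. Alternatives were DESeq2 1.42.0, RLE factors, no filter, thinning, doublet removal, other clusterings and leaving out each library. On simulated counts the fit of library sums recovered 53.6% of genes changed by 1 and 69.5% of genes changed by 2 on the log2 scale. Genes named in the text are the stress and hemoglobin genes, the 10 called genes per direction with the largest change at 20 CPM or more, up to 4 members per list, genes called in most classes and the top called gene per class at 50 CPM or more. Other genes were chosen after their values were seen, among them Klf2, Hspa5, Hspa8, Nfkbia, Hspb1, Egf and Cldn10 within classes. Some genes that this rule names are not reported here.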

Additional observations from a re-analysis of the deposited data

Results flagged for a closer look

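The change of Malat1 with warm dissociation differed between fixed and fresh cells in 2 classes, by the test of the difference itself. In connecting tubule-like cells the log2 fold change of warm over cold was -2.22 in fixed and -0.12 in fresh cells, a difference of -2.13 (standard error 0.32, edgeR adjusted p = 0.000897), and the call was kept without any 1 library (adjusted p of up to 0.00632). In distal convoluted tubule-like cells it was -1.95 in fixed and -0.57 in fresh cells, a difference of -1.40 (standard error 0.26, edgeR adjusted p = 0.0131). That call was lost without cold replicate 2 (adjusted p = 0.139), warm replicate 1 (0.0559) or warm replicate 2 (0.0507).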

How the results depend on the processing

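The 13 called stress genes kept their direction under every alternative tried, while the number of genes called moved with the tool, the filter and single libraries. Without any 1 library the stress genes called numbered 10 to 11 of the 13 in library sums, and 8 counting only genes above 0 in every fixed library. The 198 genes called in library sums became 594 with DESeq2, 95 with a log2 fold change of at least 1 required, 353 with a mean of at least 15 CPM, 476 with 9 UMIs in place of 0, and 68 to 911 without 1 library (68 without cold replicate 2, 911 without warm replicate 2). The share of calls higher in warm was 58.1%, 47.3% with 9 UMIs in place of 0 and 14.6% without warm replicate 2, and the median log2 fold change of all genes moved from -0.12 to -0.01 at 15 CPM. The 460 class pairs became 272 with a log2 fold change of at least 1, 1038 with marker score names, 219 thinned to 500 UMIs, 84 with the thresholds of the study and 234 to 503 without 1 library. The 53 stress pairs became 91, 80, 32 and 12 with marker score names, no filter, thinning and the thresholds of the study. They became 35 to 71 without 1 library. B cell-like and T cell-like cells left the class fits without warm replicate 1 or 2. The difference between fixed and fresh cells gave 0 genes in library sums, 177 with DESeq2, 2 at 15 CPM, 6 with 9 UMIs in place of 0 and 0 to 850 without 1 library. In classes it gave 2 pairs, 57 with no filter, 1 at resolution 1 and 1 to 8 without 1 library. The 159 genes called in both fresh and fixed cells became 371, 244 and 337 with DESeq2, 15 CPM and 9 UMIs in place of 0, and 63 to 279 without 1 library. Class shares gave 2 calls, 4 with TMM factors, 4 with marker score names and 2 to 5 without 1 library. The 2 reversals came with marker score names, of Gatm in ascending loop of Henle-like cells (from a called -1.21 to 0.454) and of Gpx3 in distal convoluted tubule-like cells (from a called -1.09 to 0.0945). The causes of these changes were not tested, except that fewer or more genes enter under other filters.

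With the specimen code as a replicate block, 303 class pairs were called, and the difference between fixed and fresh cells was called for 16 genes in library sums and 156 class pairs. Of the 9 classes it moved the count of calls by more than 1.5 times in B cell-like, proximal tubule-like and connecting tubule-like cells, as given beside them. The lower calls alone went from 83 to 133 in library sums and from 183 to 89 in class pairs. The block, the 15 CPM filter, the 9 UMIs in place of 0 and the count of genes above 0 were chosen after seeing the data.

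Warm replicate 3, with 782 barcodes, limits the small classes, and genes seen in few barcodes are listed at 0. Intervals and tests cover these libraries of 1 strain and 1 sex only.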

Other observations

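Further genes, chosen after their values were seen, moved in 2 nephron classes. In proximal tubule-like cells Klf4, a zinc finger transcription factor of the immediate-early list, had 0.603, 0.957 and 1.03 CPM in cold and 51.3, 19.8 and 19.9 CPM in warm fixed libraries (log2 fold change 4.92, standard error 0.52, edgeR adjusted p = 0.000108). Gdf15, a secreted stress cytokine, had 5.43, 5.74 and 6.46 against 35.1, 27.2 and 23.2 CPM (2.25, standard error 0.25, edgeR adjusted p = 0.00023). Osgin1, an oxidative stress response gene, had 33.2, 27.7 and 38.3 against 198, 162 and 64.6 CPM (2.14, standard error 0.27, edgeR adjusted p = 0.000604). Angptl4, a secreted inhibitor of lipoprotein lipase, had 20.5, 13.7 and 21.5 against 87.2, 101 and 26.5 CPM (2.08, standard error 0.31, edgeR adjusted p = 0.00244). All 4 calls were kept without any 1 library (largest edgeR adjusted p = 0.0393, Angptl4 without cold replicate 2). In this class 3.01% of 8040 genes tested were called. Osgin1 and Angptl4 are among the leading genes of cluster 28, which held 5 cold and 63 warm cells of the class, and the part of that difference in these values was not tested.

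In ascending loop of Henle-like cells Pth1r, the parathyroid hormone receptor, was lower, with 345, 338 and 300 CPM in cold and 155, 132 and 161 CPM in warm fixed libraries (-1.24, standard error 0.25, edgeR adjusted p = 0.00261). Its call was kept without any 1 library (edgeR adjusted p of up to 0.0347). Hemoglobin genes and some proximal tubule transcripts, among them Gpx3 and Gatm, were lower in the same warm sums of this class. Their part in these values was not tested.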
